A study of Monascus purpureus with 6 samples.

Results

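The genes described here are 116 genes of the fungus *Monascus purpureus* whose transcripts were strongly lowered in the mutant strain winter relative to its parent, the wild-type strain YY-1. They were chosen by their measured values. Counts were scaled to CPM (the reads on a gene divided by all reads counted in that library, times 1000000), and a gene was taken when its lowest YY-1 value was at least 10 CPM and at least 3 times its highest winter value. Both conditions were met by 145 of 7491 rows of the table (1.94%). Of these, 9 genes among the 100 with the highest mean YY-1 CPM, 15 genes among the 15 outermost at each end of the scaffolds C1 to C8, 4 genes off those scaffolds and 1 further gene were left out by the same rule, which left 116 of the 7051 genes that the rule kept open. Because the contrast between the strains selected the genes, their lower level in winter is a description and was not tested.

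The winter strain is 1 hygromycin-resistant transformant of YY-1, obtained by random insertion of a resistance cassette into protoplasts and kept for its low citrinin output. It is therefore 1 clone, and the effect of the insertion cannot be told apart from any other change that this clone carries. The insertion site is not given in the sources used here. Mycelia of winter and of the parent YY-1, which received no cassette, were collected after 8 days of cultivation, with 3 libraries (a, b and c) for each strain that the study describes as biological replicates. The column totals were 15194009 to 16004947 counts in winter and 9661178 to 10595943 counts in YY-1, so the strains also differed in depth. CPM values are not divided by gene length, so a higher CPM in one gene than in another does not mean more transcripts, and the comparisons are between strains within a gene.

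*Monascus* is a filamentous fungus that is grown on rice for its yellow, orange and red azaphilone pigments, and many strains also form citrinin, a kidney toxin. Both products are polyketides, built from acetyl and malonyl units by large multi-domain synthases. In filamentous fungi the genes of one such pathway often lie side by side on a chromosome and are switched together by a transcription factor encoded among them, while genes of primary metabolism are mostly scattered. For this reason the position of the lowered genes is given beside their levels. The gene identifiers give the scaffold and the order of the gene on it (C2.84 is gene number 84 of scaffold C2). Apart from the few genes that the study names, the identifiers are not paired with gene names or functions in the sources used here, so the genes are described by identifier, and the tissue label could not be checked against marker genes.

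The lowered genes kept a small part of their YY-1 level and none of them was silent in winter. The winter mean was between 1.60% and 29.9% of the YY-1 mean, with a median of 16.2% and quartiles of 12.3% and 21.9%, whereas the median over all 5503 open genes with at least 10 CPM in every YY-1 library was 93.2%. Only 2 genes kept less than 5%, and 16 kept 5% to 10%. The intervals of 10% to 15%, 15% to 20% and 20% to 25% held 31, 26 and 30 genes, and the remaining 11 kept more than 25%. Mean levels ran from 1.03 to 218.5 CPM in winter (median 11.4) and from 12.2 to 1165 CPM in YY-1 (median 69.8). In winter 63 of the 116 genes still averaged at least 10 CPM, 3 averaged at least 100 CPM and 0 averaged less than 1 CPM. The lowest count of any of them in any winter library was 13 reads, in C4.714, so the remaining levels rest on reads in every library.

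The size of the fall did not follow the starting level in one direction. The median remaining level was 19.9% for the 22 genes with a YY-1 mean of 10 to 30 CPM, 14.7% for 43 genes at 30 to 100 CPM, 18.1% for 32 genes at 100 to 300 CPM and 15.4% for 19 genes above that. The summed share of the library that these genes took was lower in every winter library, as the rule requires of each gene. It was 0.305%, 0.279% and 0.295% in winter a, b and c, against 2.18%, 1.95% and 1.69% in YY-1 a, b and c.

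**Figure D1:**
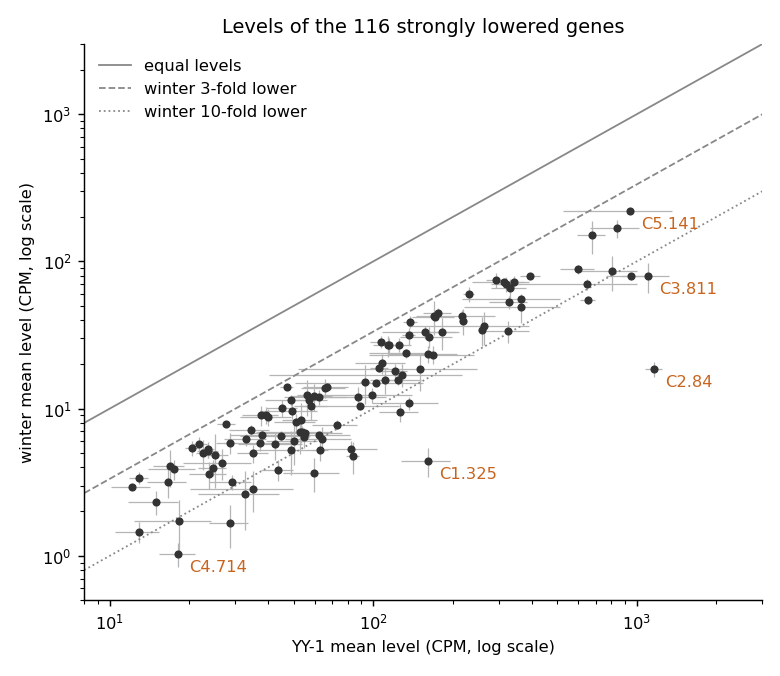
Mean level in winter (vertical axis, CPM, log scale) against mean level in YY-1 (horizontal axis, CPM, log scale) for each of the 116 lowered genes, with bars for the SD of 3 libraries and lines for equal levels and for levels 3-fold and 10-fold lower in winter. Every point lies below the line of equal levels, as the selection requires, with winter means from 1.03 to 218.5 CPM and C2.84 at 1.60% of its YY-1 mean farthest below the line.

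Fitted with edgeR's quasi-likelihood test over all genes, the log2 fold change of winter over YY-1 ran from -5.87 to -1.65 among the 116 genes, with a median of -2.51 and a median standard error (SE) of 0.20. The median over all 7355 genes tested was -0.03. All 116 were called lower at an adjusted p below 0.05, and in all 116 every winter library lay below every YY-1 library. Neither count is evidence about these genes, because the rule fixed both. Among all 7355 genes tested, 25.5% were called lower and 22.5% were called higher in winter, and 32.6% had every winter value below every YY-1 value. By the extreme libraries, 33 of the 116 genes differed at least 5-fold between the highest winter and the lowest YY-1 value, and by the means 18 differed at least 10-fold.

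The largest fall belonged to C2.84. It had 21.1, 17.8 and 16.9 CPM in winter a, b and c, against 1068, 1235 and 1193 CPM in YY-1 a, b and c, which left 1.60% of the YY-1 mean (log2 fold change -5.87 ± 0.23, SE, n = 3 each). The 3 winter values lay close together and so did the 3 YY-1 values, with a wide gap between the strains. C1.325 followed with 4.50, 5.33 and 3.41 CPM in winter, against 174.7, 186.4 and 122.7 CPM in YY-1, or 2.74% (-5.09 ± 0.21). In this gene library c was the lowest of the 3 in both strains. C4.714 had 0.812, 1.18 and 1.10 CPM in winter and 17.6, 15.7 and 21.2 CPM in YY-1 (5.67%, -4.05 ± 0.26). Its winter values rest on 13, 18 and 17 reads, so counting error alone is large for it.

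C2.85, the direct neighbour of C2.84, had 3.87, 6.121 and 4.32 CPM in winter, against 84.2, 88.3 and 78.9 CPM in YY-1 (5.69%, -4.05 ± 0.18). C2.97, on the same stretch of the scaffold, had 1.44, 2.30 and 1.29 CPM in winter, against 24.2, 33.7 and 27.9 CPM in YY-1 (5.86%, -4.00 ± 0.23). In both genes library b was the highest of its strain in winter and in YY-1. C1.531, C1.1079, C3.811, C1.605 and C4.216 completed the 10 largest falls and kept 6.15%, 6.42%, 7.17%, 7.46% and 7.91% of the YY-1 mean. Of these, C3.811 was the one with a high level to begin with, at 93.9, 59.2 and 84.3 CPM in winter, against 1359, 1013 and 939.5 CPM in YY-1 (-3.69 ± 0.26). These 10 genes lay on scaffolds C1, C2, C3 and C4, and the ranking used the same values that selected them.

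**Figure D2:**
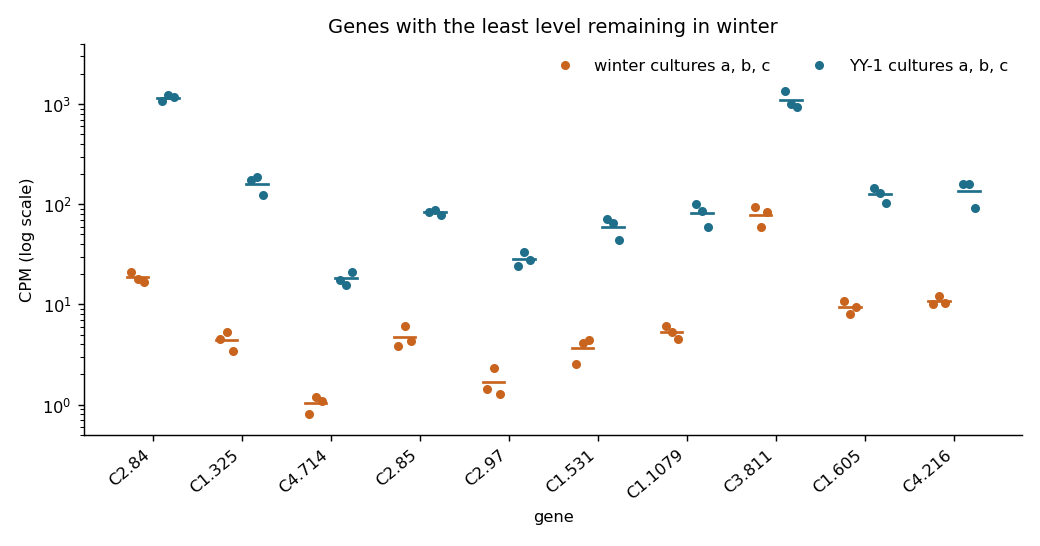
Level (CPM, log scale) of the genes with the largest falls in each library, with the 3 winter libraries left of the 3 YY-1 libraries for each gene. The points of a strain cluster within each gene, and C2.84 shows the widest gap, with 16.9 to 21.1 CPM in winter and 1068 to 1235 CPM in YY-1.

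Some genes kept a high winter CPM (not corrected for length) although they fell. C5.141, which the study's text names as a transcription factor gene, had 216.6, 227.0 and 212.0 CPM in winter, against 1429, 695.9 and 711.7 CPM in YY-1, and kept 23.1% (-2.02 ± 0.27). Its YY-1 level rests in part on library a, which stood at about the sum of b and c, and without YY-1 a its log2 fold change was -1.58. C2.602 had 192.8, 166.2 and 144.9 CPM in winter, against 977.3, 903.2 and 641.8 CPM in YY-1 (19.98%, -2.21 ± 0.20). C6.662 had 175.2, 106.7 and 169.0 CPM in winter, against 663.5, 598.5 and 763.3 CPM in YY-1 (22.3%, -2.07 ± 0.26). These were the 3 genes that averaged at least 100 CPM in winter, and each of them lost less than the median gene of the group. C2.609 was next by winter CPM, with 94.4, 82.5 and 88.6 CPM there, against 603.3, 684.7 and 510.6 CPM in YY-1 (14.8%, -2.65 ± 0.18). C5.412 had 60.3, 94.6 and 102.1 CPM in winter, against 1001, 807.7 and 599.7 CPM in YY-1 (10.7%, -3.13 ± 0.24), and its libraries ran in opposite orders, with a the lowest in winter and the highest in YY-1. C1.248 also kept a smaller part, with 80.4, 74.4 and 82.4 CPM in winter, against 1160, 874.7 and 813.7 CPM in YY-1 (8.32%, -3.49 ± 0.20).

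The libraries of each strain were close for most of the genes. The highest library exceeded the lowest by a median of 1.30-fold in winter and 1.397-fold in YY-1, against 1.26-fold and 1.35-fold over all open genes with at least 10 CPM in every YY-1 library. In YY-1, 73 of the 116 genes stayed within 1.5-fold and 14 differed by more than 2-fold. In winter 3 differed by more than 2-fold, namely C5.23, C8.443 and C5.114, all of which averaged below 5 CPM there. The narrowest spread in YY-1 was that of C6.501, with 29.8, 21.9 and 28.9 CPM in winter and 114.6, 112.0 and 114.3 CPM in YY-1. The widest was that of C2.1034, with 22.8, 20.6 and 12.6 CPM in winter and 116.2, 260.9 and 73.3 CPM in YY-1. C2.33 ran differently across the YY-1 libraries, at 77.5, 65.7 and 66.7 CPM in winter and 979.0, 692.5 and 278.5 CPM in YY-1. C3.965 had the same order, at 14.5, 15.9 and 14.6 CPM in winter and 155.7, 101.5 and 51.0 CPM in YY-1. The rule itself keeps the strains from overlapping in these 3 genes, while the size of the fall depended on the YY-1 library taken.

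The YY-1 libraries had an order among themselves in these genes. YY-1 a was the highest of the 3 for 68 genes (58.6%), against 29.2% of all open genes with at least 10 CPM in every YY-1 library, for which YY-1 b was most often the highest (51.9%). YY-1 c was the lowest for 76 of the 116 genes (65.5%) and for 58.4% of that larger set. Since the rule takes the lowest YY-1 value, library c set the limit for most genes. Without YY-1 c the same rule took 190 genes, among them all 116 and 74 more. Leaving out any other single library gave 119 to 130 genes, each time including all 116. The rule compares extreme values, so leaving out a library can only loosen it, and none of the 116 could be lost. In winter, libraries a, b and c were the highest for 45, 36 and 35 of the 116 genes, whereas b was the highest for 57.1% of that larger set. Winter b was the lowest for 53 of the 116 genes. The 100 genes with the highest mean YY-1 CPM took 34.3%, 31.9% and 37.1% of the counts in YY-1 a, b and c. In winter a, b and c they took 30.8%, 25.3% and 29.5%. CPM is a share of the column total, and the part of this in the library orders was not tested.

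Near the limits the rule separated genes with almost the same values. The ratio of the lowest YY-1 to the highest winter CPM (YY-1 over winter) was 3.03 in C7.368, 3.03 in C2.767 and 3.05 in C3.467 just inside, and 2.98 in C3.436, 2.98 in C4.538 and 2.96 in C2.700 just outside. For the level, the lowest YY-1 value was 10.1 CPM in C2.83, 10.6 CPM in C7.309 and 11.8 CPM in C2.476 just inside, and 9.58 CPM in C4.894, 9.19 CPM in C2.124 and 8.89 CPM in C4.797 just outside. Over the 116 genes the ratio had a median of 3.99, so a large part of them lay not far above the limit of 3, and a limit of 4 kept 58.

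All 8 large scaffolds held lowered genes. Scaffold C2 held 31 of the 116 (26.7%), while it held 16.03% of the open genes, and 2.74% of its open genes were among the lowered ones. Scaffold C8 followed with 10 genes (1.85% of its open genes), C5 with 14 (1.77%), C1 with 19 (1.53%), C6 with 12 (1.46%) and C7 with 9 (1.36%). Scaffolds C3 and C4 had the lowest shares, with 12 genes (1.20%) and 9 genes (1.03%). The mirrored rule, with winter as the higher strain, was met by 97 of all rows (1.29%), and 90 genes remained after the same genes were left out. The raised genes were placed differently over the scaffolds, with 9 on C2 but 19 on C4 and 17 on C3. Whether the scaffolds differ in their share was not tested, because the genes were chosen by their levels.

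**Figure D3:**
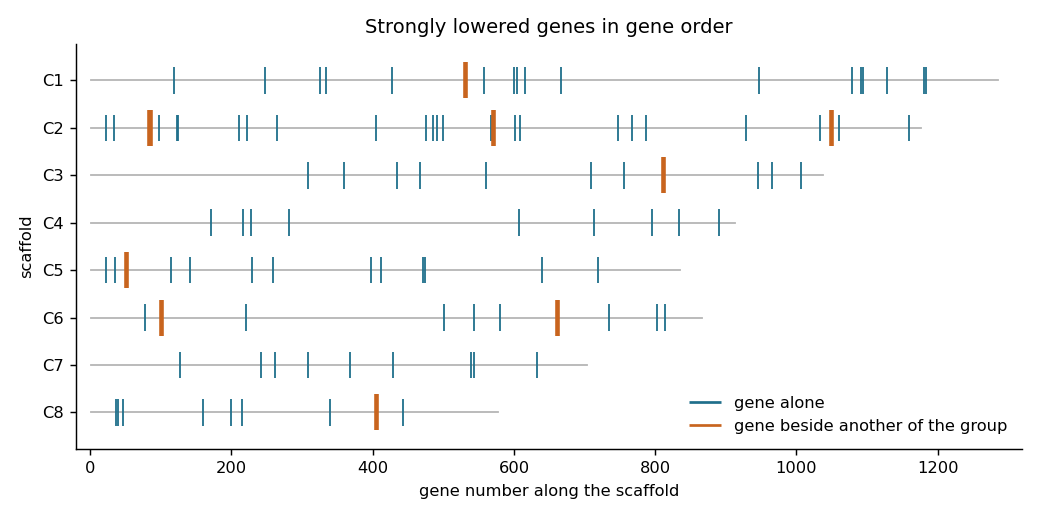
Position of the 116 lowered genes along scaffolds C1 to C8 (horizontal axis, gene number; one row for each scaffold), with runs of neighbouring genes marked apart from single genes. Lowered genes occur along all 8 scaffolds, 31 of them on C2, and the run of 4 lies near the low-numbered end of C2.

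Most of the lowered genes stood alone. Lowered genes made up only 1.65% of the open genes, and whether runs were more frequent than that share would give was not tested. Taking genes with consecutive numbers as a run, 96 of the 116 (82.8%) had no lowered gene directly beside them and 20 (17.2%) fell into 9 runs, made up of 1 run of 4 genes and 8 pairs. With 1 other gene allowed in between, 24 genes (20.7%) fell into 11 runs, and with 2 allowed, 30 genes (25.9%) fell into 14. The median distance between lowered genes that followed each other on a scaffold was 40.5 gene numbers and the largest was 326. Among the 90 raised genes, 15 (16.7%) fell into 7 runs, the longest of 3 genes, so runs were about as frequent in that direction. No lowered gene lay directly beside a raised one, but raised genes were only 1.28% of the open genes, so this is not read as a result. The count in runs depends on 1 library, since without YY-1 c 54 of the 190 genes (28.4%) lay in runs.

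The run of 4 was C2.83 to C2.86 and held the gene with the largest fall. C2.83 had 1.44, 1.71 and 1.22 CPM in winter and 14.2, 14.4 and 10.1 CPM in YY-1 (11.3%, -3.04 ± 0.22). C2.86 had 4.37, 6.06 and 5.35 CPM in winter and 62.0, 68.0 and 59.1 CPM in YY-1 (8.34%, -3.49 ± 0.16). Together with C2.84 and C2.85, given above, the run thus kept 1.60% to 11.3% of the YY-1 level, below the median of the lowered genes in each of its genes. The genes beside the run had far smaller differences. C2.82 on one side had 8.87, 6.78 and 7.60 CPM in winter and 7.76, 5.002 and 4.45 CPM in YY-1 (0.54 ± 0.25), and C2.87 on the other side had only 0.644 to 1.18 CPM in winter and 1.45 to 2.08 CPM in YY-1 (-0.84 ± 0.33). Beyond them C2.81 and C2.88 had log2 fold changes of -0.08 ± 0.14 and 0.39 ± 0.15.

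The stretch around this run held more lowered genes than any other window of 20 gene numbers, namely 5 from C2.83 to C2.102, the fifth being C2.97. C2.97 stood between neighbours close to 0, with log2 fold changes of 0.08 ± 0.15 for C2.96 and -0.01 ± 0.26 for C2.98. Weakly expressed genes close by also had negative values without reaching the 10 CPM that the rule asks for. C2.99 averaged 0.808 CPM in winter and 4.25 CPM in YY-1 (-2.28 ± 0.39), and C2.101 averaged 0.920 CPM in winter and 6.15 CPM in YY-1 (-2.65 ± 0.52). C2.90 averaged 0.817 CPM in winter and 2.45 CPM in YY-1 (-1.49 ± 0.33). Between these genes lay others with positive values, among them C2.91 to C2.94, at 0.55 to 1.64.

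**Figure D4:**
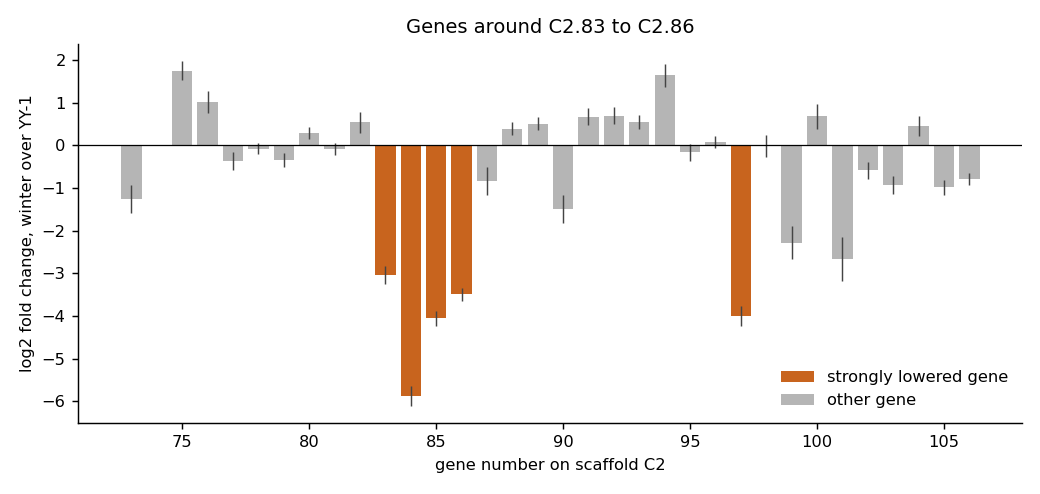
Log2 fold change of winter over YY-1 (vertical axis, with bars for the SE of the edgeR fit) for the genes around the run C2.83 to C2.86, in order of gene number (horizontal axis). The 4 genes of the run lie between -5.87 and -3.04 and the genes on either side, C2.82 at 0.54 and C2.87 at -0.84, lie closer to 0.

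In the 8 pairs both genes fell, but to different degrees. C1.531 had 2.56, 4.08 and 4.38 CPM in winter and 70.9, 64.6 and 43.7 CPM in YY-1 (6.15%), and its partner C1.532 had 30.2, 42.8 and 29.2 CPM in winter and 262.0, 264.2 and 247.5 CPM in YY-1 (13.2%). C3.811 (7.17%) and C3.812 (10.3%) kept similar parts of the YY-1 level, and C3.812 had 35.9, 27.2 and 37.7 CPM in winter and 398.4, 293.2 and 282.5 CPM in YY-1. In this pair winter b was the lowest winter library and YY-1 a the highest YY-1 library in both genes. C2.1049 had 58.0, 50.9 and 55.7 CPM in winter and 701.3, 624.2 and 630.6 CPM in YY-1 (8.41%), and C2.1050 had 13.8, 12.4 and 9.66 CPM in winter and 108.7, 93.2 and 61.0 CPM in YY-1 (13.7%). The pair C2.571 and C2.572 was the one with the most unequal level changes next to C1.531 and C1.532. C2.571 had 43.1, 36.0 and 37.9 CPM in winter and 148.1, 131.5 and 134.7 CPM in YY-1 (28.3%), and C2.572 had 19.1, 13.7 and 14.0 CPM in winter and 112.4, 101.9 and 118.9 CPM in YY-1 (14.1%). The pairs C6.100 and C6.101 (13.1% and 16.04%), C6.661 and C6.662 (16.3% and 22.3%), C8.405 and C8.406 (18.7% and 20.9%), and C5.51 and C5.52 (21.57% and 19.97%) differed less between the partners.

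In several cases the partners of a pair shared the highest or lowest library of a strain. None of the pairs given here shared the whole order in both strains. C6.100 had 7.81, 4.61 and 8.31 CPM in winter and 64.4, 59.8 and 33.5 CPM in YY-1, and C6.101 had 5.06, 3.16 and 4.64 CPM in winter and 29.8, 32.5 and 17.9 CPM in YY-1. Winter b and YY-1 c were the lowest libraries of their strain in both. C6.661 had 18.5, 10.1 and 17.1 CPM in winter and 89.1, 93.8 and 97.1 CPM in YY-1, and winter b was the lowest winter library in it as in C6.662. C8.405 had 6.81, 6.06 and 5.67 CPM in winter and 39.9, 30.5 and 28.7 CPM in YY-1, and C8.406 had 13.3, 13.8 and 14.9 CPM in winter and 81.9, 62.2 and 57.0 CPM in YY-1. There the YY-1 libraries ran in the same order in both genes and the winter libraries in opposite orders. C5.51 had 23.7, 29.4 and 28.02 CPM in winter and 116.2, 117.7 and 141.9 CPM in YY-1, and C5.52 had 76.0, 56.9 and 65.1 CPM in winter and 313.2, 291.4 and 387.0 CPM in YY-1. YY-1 c was the highest library in both, as it was in C6.661 and C6.662. Over the 116 genes winter b was the lowest for 53, YY-1 c the lowest for 76 and YY-1 c the highest for 22. Whether partners shared a library more often than other genes was not tested.

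Several runs continued into genes that were lower in winter without meeting the rule. C1.530, before the pair on C1, had 80.5, 112.9 and 117.6 CPM in winter and 489.8, 362.2 and 318.8 CPM in YY-1 (-1.82 ± 0.20). C3.813, after the pair on C3, had 496.7, 359.9 and 510.3 CPM in winter and 1939, 1473 and 1784 CPM in YY-1 (-1.83 ± 0.24). It was among the 100 genes left out for their high level, and its lowest YY-1 value was also less than 3 times its highest winter value. C6.102 had 9.37, 6.91 and 8.18 CPM in winter and 27.9, 28.8 and 24.1 CPM in YY-1 (-1.62 ± 0.18). In none of these 3 genes did the strains overlap. Other runs ended abruptly, as before C2.571, where C2.570 had 125.0, 103.1 and 108.4 CPM in winter and 41.2, 42.9 and 57.3 CPM in YY-1 (1.34 ± 0.20). Of the 9 runs, 7 had a gene called lower by edgeR directly beside them. Each run has a gene on either side and 25.5% of all tested genes were called lower, so this count is not read as particular to the runs, and some of these neighbours differed little, such as C5.50 at -0.44 ± 0.14 and C6.660 at -0.49 ± 0.19.

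Genes lying between lowered ones behaved in both ways. C2.124 lay between C2.123 (26.5% remaining) and C2.125 (20.5%) and had 1.25, 1.65 and 1.29 CPM in winter, against 16.1, 10.9 and 9.19 CPM in YY-1 (-3.01 ± 0.26), missing the rule only by its level in YY-1 c. C8.38 and C8.39 lay between C8.37 (14.7%) and C8.40 (23.5%) with log2 fold changes of -3.31 and -1.88, at levels below 7 CPM in every library. In contrast C1.1093 lay between C1.1092 and C1.1094, which both kept 20.1%, and had 193.6, 211.3 and 201.5 CPM in winter, against 246.0, 194.1 and 122.4 CPM in YY-1 (0.22). There the values of the strains overlapped.

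Directly beside the lowered genes, genes that were not themselves selected had a lower median and were called lower more often than genes farther away, which was not tested. The 199 tested genes next to a lowered gene had a median log2 fold change of -0.27, and 40.7% of them were called lower and 16.6% higher in winter. At a distance of 2 gene numbers the median was -0.12 and 27.2% were called lower, and at 3 it was -0.10 and 29.9%. The 5420 genes more than 10 numbers away had a median of 0.00, with 23.3% called lower and 23.0% called higher, close to the 25.5% and 22.5% among all genes. In all, 69 of the 116 genes had a gene called lower beside them that was not selected. Most genes have a neighbour on each side, so this count cannot be set against the 25.5% for single genes. The same count over all genes is not given here, and the 69 is not read as a result. Neighbours can share reads where gene models overlap, and the part of such reads in these values was not tested. The selection removes its own 116 genes from the neighbours. The 15 genes at scaffold ends and the 9 most abundant ones that met both conditions but were left out stayed among the genes not selected. For these reasons the values are a description.

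**Figure D5:**
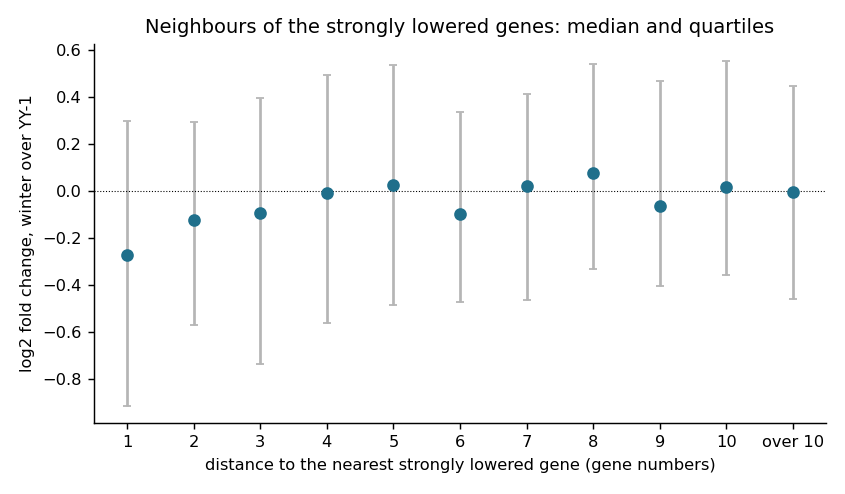
Log2 fold change of winter over YY-1 for genes that were not selected (vertical axis; median and quartiles) by distance to the nearest lowered gene in gene numbers (horizontal axis). The median is -0.27 for direct neighbours, -0.12 at a distance of 2 and 0.00 beyond 10.

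The single genes with the largest falls had neighbours of both signs. C1.325 lay between C1.324, with a log2 fold change of 0.53, and C1.326, with -0.03. C4.714 lay between C4.713 at -1.07 ± 0.27 and C4.715 at 1.94 ± 0.22. C1.1079 lay between C1.1078 at 0.63 ± 0.25 and C1.1080 at -0.55 ± 0.14. C1.605 had C1.606 at -1.17 ± 0.25 on one side, and C1.604 on the other side was too weakly counted for the test.

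The lowered genes were also set against the 24 genes that the study's text names by identifier, among them genes of pigment and acetyl-CoA metabolism and transcription factors, which the study chose on these same samples. Of these 24, 1 gene, C5.141, was among the 116, against 1.65% of the open genes. As edgeR called them, 6 of the 24 were lower and 17 (70.8%) higher in winter, beside 25.5% lower and 22.5% higher among all genes tested, and the list is not independent evidence of its direction. C5.141 lay 4 gene numbers from C5.137, the polyketide synthase gene that the study assigns to pigment formation, which had a log2 fold change of 1.87. C2.23, with 6.81, 4.34 and 5.99 CPM in winter and 49.6, 48.2 and 28.9 CPM in YY-1 (13.5%, -2.76 ± 0.24), lay 2 gene numbers from C2.25, which had -1.01. In C2.25 the strains overlapped, with a lowest YY-1 value 0.989 times the highest winter value. C6.126, which the text names as a transcription activator, and C6.127, which it names as an aldehyde dehydrogenase gene, lay 25 and 26 gene numbers from the nearest lowered gene, C6.101.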

How the data were processed

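RNA-seq of mycelia from *M. purpureus* winter and YY-1 (3 libraries each) was analysed from the raw read counts per gene that the authors deposited. Per the labels, the submitters' notes name TopHat2 2.0.8b and HTSeq 0.5.4p2. According to the methods, reads were mapped to transcripts predicted from the YY-1 genome and counted on unique exons, so reads shared by near-identical genes may be lost, and use of strand is not given in the sources used here. Reference sequences of this strain were not used here.

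CPM was computed on column totals. Log2 fold changes came from edgeR 4.0.16 in R 4.3.3 (quasi-likelihood, TMM, strain as the only term, Benjamini-Hochberg adjustment, threshold 0.05) after its low-count filter removed 136 genes. DESeq2 1.42.0, other scalings and limits, and each library left out were alternatives. Named genes were the 10 largest falls, the 5 highest levels in each strain, the longest runs, the widest and narrowest YY-1 spreads and those nearest the limits; others, such as neighbours and the genes in the study's text, were named for their position. The members, lists and rules were chosen with earlier results of these data known. A test over 3 against 3 libraries cannot go below an exact permutation p of 0.1. Deviations of winter and YY-1 libraries with the same letter correlated across genes (0.101, 0.300 and 0.125 for a, b and c), while winter c and YY-1 a, with different letters, correlated at 0.208. The letters met the limit of 0.1 set for pairing, so a fit with the letter as a replicate block was run as an alternative, and every printed fold change is from the fit without it. No 2 libraries of a strain agreed within sampling noise. Counts limit precision through counting error, from 13 reads upwards in the selected genes.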

Additional observations from a re-analysis of the deposited data

How the results depend on the processing

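All 116 genes were called lower under every edgeR setting and DESeq2, which is not evidence about them because the rule chose them by the same contrast. Scaling moved their number to 102 with TMM, which kept 98 of the 116 and lost 18. With DESeq2 size factors their number was 94, with 91 of the 116 kept and 25 lost. The limit moved it more, to 309 genes at 2-fold, 58 at 4-fold and 245 on means, with 67, 10 and 63 in runs and median remaining levels of 27.3%, 12.5% and 24.1%, since these settings change the selection itself. Counting only runs of 3 or more genes left 4. Leaving out 1 library, which can only loosen the rule, gave 119 to 190 genes, 20 to 54 in runs and medians of 17.5% to 19.1%, the highest without YY-1 c. Over all genes, the median log2 fold change was -0.03 with TMM, 0.00 with DESeq2 size factors and -0.13 with totals, with 1873 lower and 1658 higher, 1778 and 1765, and 2039 and 1260 genes called. With a threshold of 0.001, 653 were called lower. With the replicate block, 1993 were lower and 1848 higher. No call among the 116 changed, which the selection again all but fixed. Leaving out 1 library gave 1416 to 1889 lower genes. None of 324 alternatives for the 36 named genes reversed, which the rule all but fixed, since it chose genes by this difference. Their log2 fold changes ran from -6.01 to -1.58 over these alternatives.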

Other observations

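The genes left out by the rule met its 2 conditions more often than the genes kept. Of the 240 genes at the ends of scaffolds C1 to C8, 15 (6.25%) met the conditions for a lowered gene and 7 met the mirrored conditions for a raised one. Of the 100 genes with the highest mean YY-1 CPM, 9 met the conditions and 0 met the mirrored ones. That set was taken by its YY-1 level. Of the 99 rows off scaffolds C1 to C8, 4 (4.04%) were lowered and 0 raised. Among the 7051 genes kept the share was 1.65%, and the differences between these shares were not tested.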
